A study of Mus musculus with 16 samples.

Results

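The nuclear genes of respiratory complexes II to V were examined in the tibialis anterior (TA), a muscle of the lower leg, of GDF15-treated, pair-fed and vehicle-treated mice. Members were chosen by symbol alone: Sdha to Sdhd for complex II, Cyc1, the Uqcr genes and Uqcc1 to Uqcc3 for complex III, symbols beginning Cox4 to Cox8 for complex IV, and symbols beginning Atp5 for complex V. This gave 49 of the 14538 genes in the deposited table, namely 4 genes of complex II, 12 of complex III, 16 of complex IV and 17 of complex V. Of these, 48 reached the minimum of a mean of 10 normalized counts and were tested. The exception was Cox6b2, the testis form of a complex IV subunit.

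Complexes II, III and IV of the inner mitochondrial membrane pass electrons from succinate and ubiquinone through cytochrome c to oxygen, and complexes III and IV pump protons as they do so. Complex V, the ATP synthase, lets the protons flow back and uses that flow to make ATP. In skeletal muscle these complexes are most abundant in slow and fast oxidative fibres, and several complex IV subunits exist in a heart and skeletal muscle form and a form found in most other tissues. Complexes III, IV and V also hold subunits encoded by the mitochondrial genome, which were not analysed here.

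RNA-seq was performed on 16 libraries, each from 1 mouse: 5 vehicle, 6 GDF15 and 5 pair-fed, the last numbered 2 to 6. By their labels all were wild-type (WT) C57BL/6 mice (males on the C57BL/6J background in the study's methods) that were started at 8 weeks of age on a diet that causes non-alcoholic steatohepatitis (NASH), in housing at about 29 °C, and were kept singly during treatment. The hormone GDF15 was injected under the skin once daily, the daily ration of pair-fed mice was set by the intake of the GDF15 group 1 day earlier, and vehicle mice were the controls. The labels list GDF15 doses of 0.3, 1 and 5 nmol/kg and do not say which of them these mice received. The comparisons addressed whether GDF15 and a matched cut in food intake differed in what they did to muscle.

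The approximate depth was 9475676 to 15030303 reads per library, estimated from the deposited values. The identity of the tissue was checked with 5 markers of skeletal muscle, all of which were abundant (in vehicle mice, 421800 ± 15490 normalized counts for the actin Acta1 and 45090 ± 2917 for the myoglobin Mb; mean ± SD, n = 5). The pair-fed mouse 3, pair-fed mouse 6 and GDF15 mouse 1 stood apart in slow myosin, Myh7, with 746, 481 and 1094 normalized counts against 105, 56.1, 42.1, 105 and 108 in the vehicle mice. In bulk muscle, fewer cells of a type and less RNA per cell cannot be told apart.

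Promoter sequences were available from RefSeq for 38 of the 49 members, and letters of binding motifs were searched on both strands of the 250 bases before the start. A gene was counted where any of its windows held the letters, for members and for all genes alike. Stretches are shown for 4 of the 5 members with an entry that differed between pair-fed and vehicle mice (see the values given for each gene), because a promoter is where members that move together could share a feature. Of these 5, the NRF1 letters were found in 1 and the ETS letters in 2; Cox7a1 and Atp5pb, the latter not shown, held neither. The motif of the respiratory factor NRF1, GCGCATGC, was found in 5 of 38 members (13.2%), against 2.56% of all 27025 genes with a window of that length. The ETS motif CCGGAAG, which the respiratory factor GABP also reads, was found in 9 members (23.7%) against 7.83% of all genes. The Sp1 letters GGGCGG were at 34.2% of members and 35.4% of all genes, and the CRE letters TGACGTCA at 2.63% and 1.77%. The ERR letters TCAAGGTCA were found in 1 member (2.63%) against 0.422% of all genes, and the MEF2 motif in 0 members against 1.69%. The 27025 genes include genes outside the deposited table of 14538, and no share was taken over the genes tested in muscle alone. A match is a description of letters and not a binding site. In the lines that follow, capitals mark the motif, and each stretch is read 5′ to 3′ on the strand of its gene from the GRCm38.p6 build. The Cox7a1 line is the part of its window that lies outside annotated exons and holds none of the 6 motifs. The other lines are the 30 bases around the NRF1 motif of Atp5k, which lies there in a palindrome that matches on both strands, and around the ETS motif of Atp5h and Atp5j. Of these 30 bases, 19 in Atp5k, 23 in Atp5h and 30 in Atp5j lie within annotated exons. The Atp5j line comes from the window of a start inside the gene, and the window of its outermost start held no ETS match.
Cox7a1, chr7:30183921-30184143, plus strand: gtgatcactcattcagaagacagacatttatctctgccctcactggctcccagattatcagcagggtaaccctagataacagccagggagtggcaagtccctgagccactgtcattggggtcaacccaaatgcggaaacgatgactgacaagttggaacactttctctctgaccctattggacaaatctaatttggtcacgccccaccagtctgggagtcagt
Atp5k, chr5:108434430-108434459, minus strand: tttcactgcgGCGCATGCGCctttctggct
Atp5h, chr11:115419940-115419969, minus strand: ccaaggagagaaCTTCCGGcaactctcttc
Atp5j, chr16:84835020-84835049, minus strand: tagctgagggacCCGGAAGcacttaccctc

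Levels were compared between genes only after division by transcript length, as normalized counts per kilobase scaled, as for TPM, to the same sum in each library. On that scale the catalytic head of ATP synthase was highest in vehicle mice, with Atp5b (the β subunit) at 3639 ± 76.4 and Atp5a1 (the α subunit) at 2286 ± 75.3 (SD, n = 5). The muscle form Cox6a2 stood at 2156 ± 46.6, Cox4i1 at 1898 ± 71.2 and the muscle form Cox8b at 1784 ± 99.1, and the SDs of Cox4i1 and Cox8b overlapped. In complex II the catalytic pair Sdha and Sdhb did not differ beyond their spread, at 918 ± 28.8 and 917 ± 46.0, and the membrane anchors were lower, with Sdhd at 453 ± 17.6 and Sdhc at 378 ± 22.7. In complex III the highest levels were those of Uqcrq, 1287 ± 41.8, and the core protein Uqcrc1, 1226 ± 72.4, whose SDs overlapped. The lowest level in complex III was that of the assembly factor Uqcc3 at 56.4 ± 6.39. The lowest members of all were Cox6b2 at 1.80 ± 0.73 and Cox4i2 at 7.46 ± 1.09, and the forms Cox6a1 (53.9 ± 2.02), Cox8a (83.5 ± 11.9) and Atp5g2 (52.2 ± 4.81) were also far below the rest of their complexes.

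**Figure D1:**
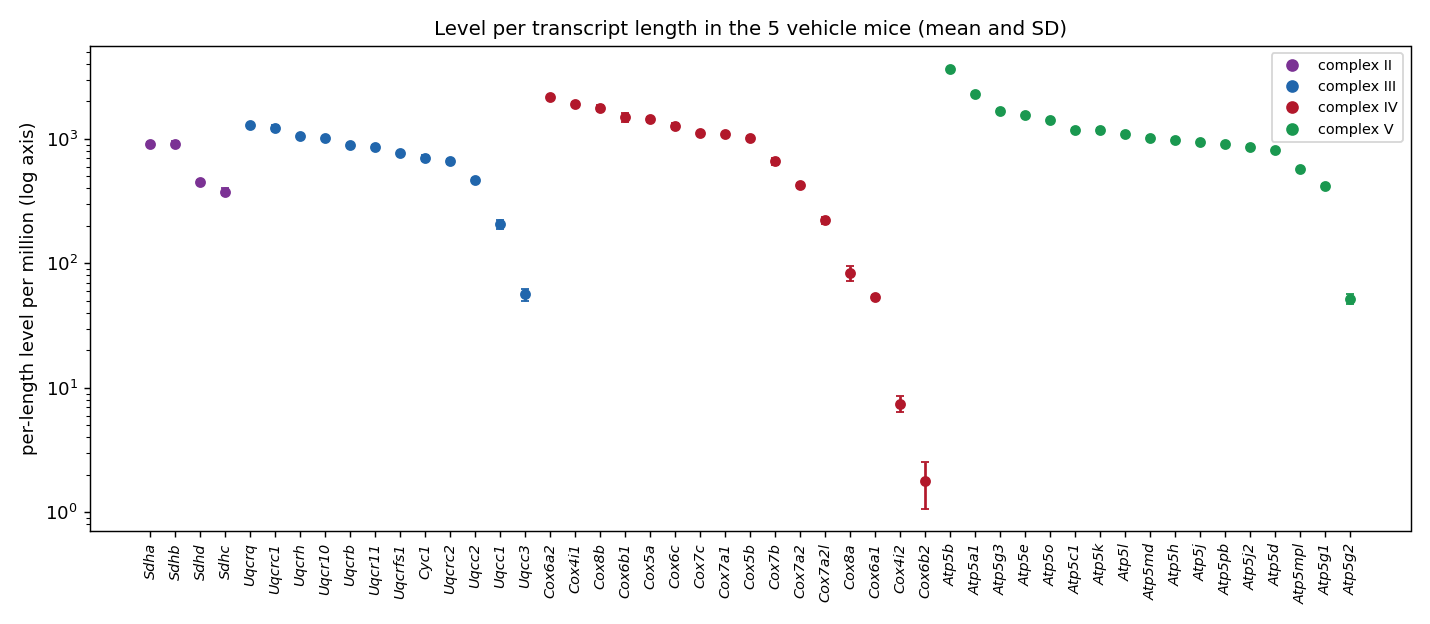
Per-length level of each member in the 5 vehicle mice on a log axis, ordered within each complex; points are means and bars SD. Most members lie within a range from Sdhc (378) to Atp5b (3639), and 8 lie below it, among them Cox4i2 (7.46) and Cox6b2 (1.80).

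Between pair-fed and vehicle mice, 6 of 48 members fell: 1 of complex III, 1 of complex IV, 4 of complex V and none of complex II. The log2 fold change was below 0 for 46 of 48 members, with a median of −0.12, against 49.8% of all genes below 0 and a median of 0.00 over all genes. The members past an adjusted p of 0.1 were Cox7a1, Uqcrq, Atp5k, Atp5pb, Atp5j and Atp5h. None rose. Of all 11841 genes tested, 6.37% passed this test in either direction and 3.17% as lower. With the fold threshold of the study added (0.6 on the log2 scale), 0 members passed, against 0.819% of all genes. At an unadjusted p under 0.05, 21 members were lower and 0 higher, against 9.82% of all genes lower. The 6 members with no overlap between the groups, all lower in pair-fed mice (2.65% of all genes), were Cox7a1, Uqcrq, Atp5k, Atp5pb, Atp5j and Atp5mpl. The number of members past the adjusted p depended on single mice: it was 3 without vehicle mouse 1 or vehicle mouse 2, 2 without vehicle mouse 3, vehicle mouse 5, pair-fed mouse 2 or pair-fed mouse 6, and 14 without pair-fed mouse 3, among them Sdhb, Cyc1, Cox5a and Atp5g2. With libraries scaled to equal totals, chosen after seeing the data, it was 20, with the median of all genes moved to −0.05 and that of members to −0.17. The share of all genes past the adjusted p was not taken in these settings. Whether calls rose or fell for all genes alike is therefore not known.

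**Figure D2:**
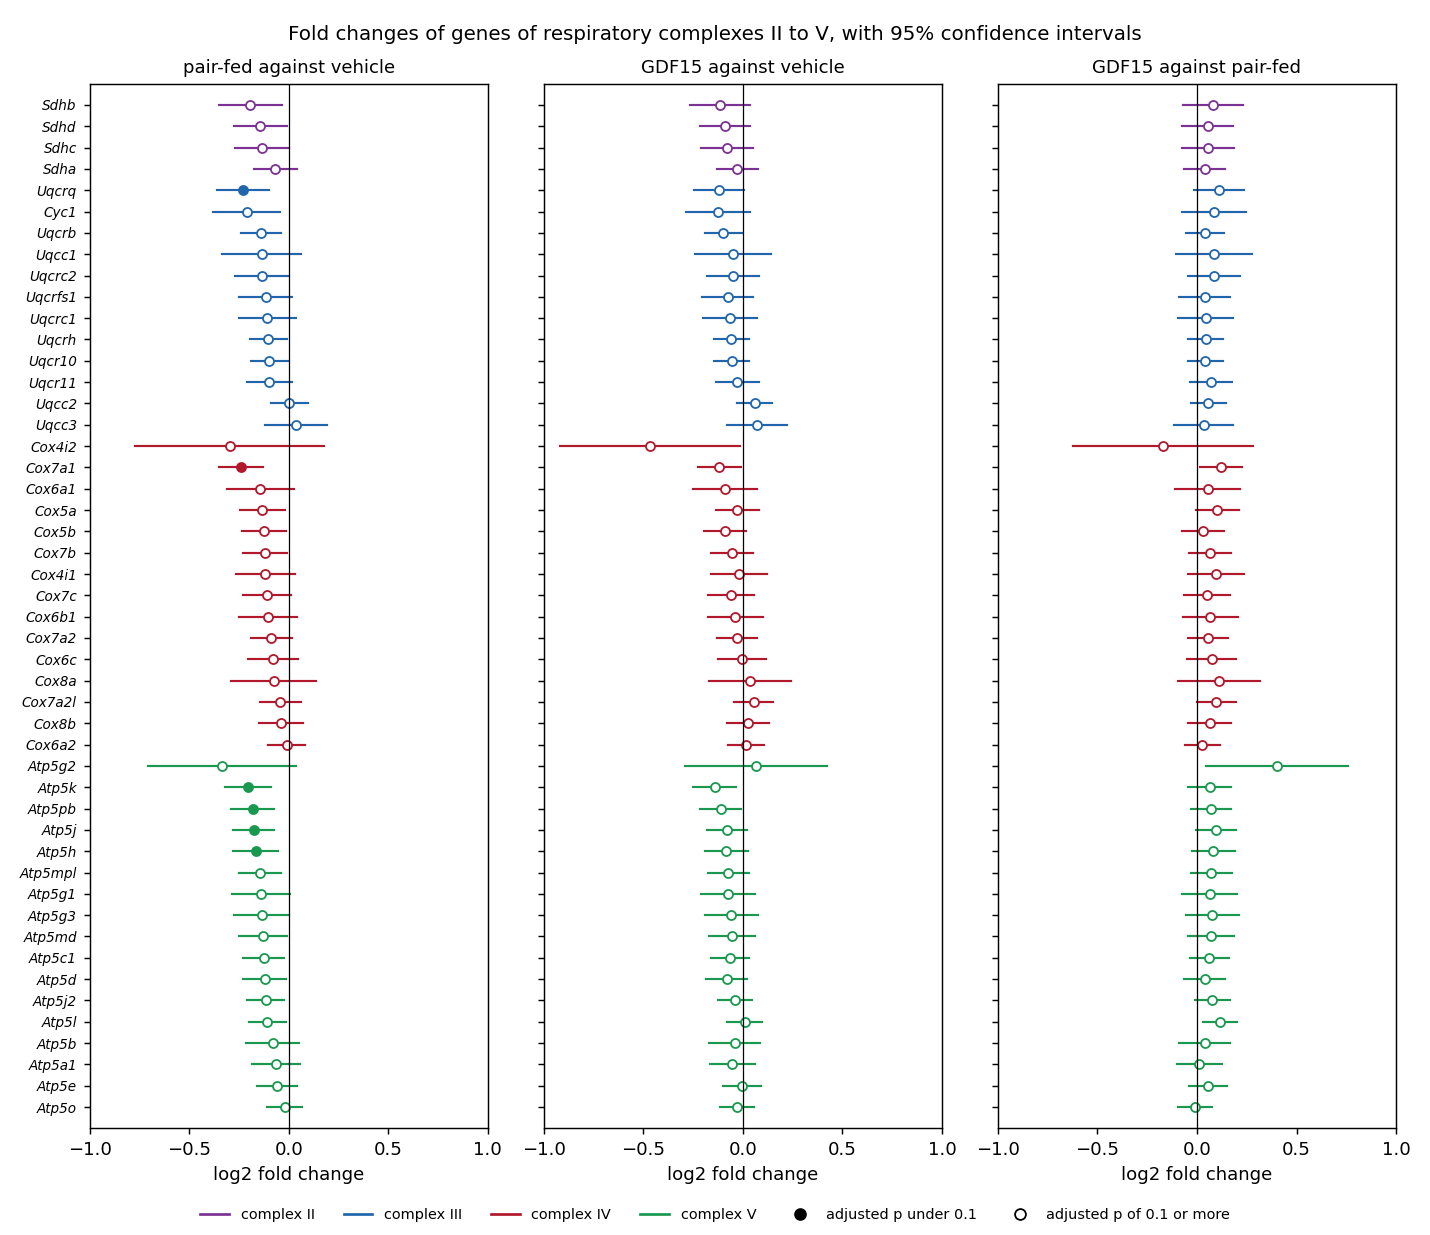
Log2 fold change (x axis) of the 48 tested members in the 3 comparisons, ordered by complex; points are estimates, bars 95% confidence intervals, and filled points have an adjusted p under 0.1. In the first panel 46 of 48 points lie below 0 and 6 are filled, and no point is filled in the other panels.

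In complex II, which oxidizes succinate, 0 of 4 genes passed the adjusted p, and their median log2 fold change between pair-fed and vehicle mice was −0.14. Sdhb, the iron-sulphur subunit, stood at 6202, 6954, 6885, 6422 and 6514 normalized counts in vehicle mice and at 5383, 6822, 5941, 5743 and 5085 in pair-fed mice. Pair-fed mouse 3 lay among the vehicle mice and the other four lay below them. The fold change was −0.19 ± 0.08 (log2, SE; adjusted p = 0.171). The membrane anchors gave −0.14 ± 0.06 for Sdhd (adjusted p = 0.228) and −0.13 ± 0.06 for Sdhc (adjusted p = 0.270), and the flavoprotein Sdha, which binds the succinate, gave −0.07 ± 0.05 (adjusted p = 0.523).

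In complex III, which passes electrons from ubiquinone to cytochrome c, Uqcrq fell and the other 11 genes did not pass. Uqcrq (ENSMUSG00000044894, chromosome 11, 53427922 to 53430831 on the minus strand) encodes a small subunit at the membrane. It stood at 4002, 4180, 4066, 3964 and 4211 normalized counts in vehicle mice, at 3263 to 4133 with a median of 3836 in GDF15 mice, and at 3209, 3899, 3630, 3560 and 3164 in pair-fed mice. The highest pair-fed mouse lay below the lowest vehicle mouse, and GDF15 mice spanned both groups. Uqcrq differed between pair-fed and vehicle mice by −0.23 ± 0.06 (log2, SE; −14.7%; adjusted p = 0.0495). Cyc1, cytochrome c1, gave a fold change of nearly the same size, −0.21 ± 0.08, with a wider spread (adjusted p = 0.163). Uqcrb, the nearest gene above the threshold, gave −0.14 ± 0.05 (adjusted p = 0.112). The core proteins Uqcrc1 and Uqcrc2 and the Rieske iron-sulphur protein Uqcrfs1 lay between −0.14 and −0.11. The small subunits Uqcrh, Uqcr10 and Uqcr11 gave −0.10 each and the assembly factor Uqcc1 gave −0.14 ± 0.10. Of the 48 tested members only the assembly factors Uqcc2 (0.00 ± 0.04) and Uqcc3 (0.04 ± 0.07) lay above 0, both with a 95% interval that held 0. They help cytochrome b into the complex and are not part of the finished enzyme, and all 45 tested members other than the 3 assembly factors lay below 0. Over the alternative settings 45 to 48 members lay below 0, and Uqcc3 changed sign in 3 of 32.

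In complex IV, cytochrome c oxidase, Cox7a1 fell and the other 14 tested genes did not pass. Cox7a1 (ENSMUSG00000074218, chromosome 7, 30184144 to 30186078 on the plus strand) is the heart and skeletal muscle form of subunit 7a. It stood at 3018, 3075, 3073, 2981 and 2896 normalized counts in vehicle mice, at 2369 to 2936 with a median of 2864 in GDF15 mice, and at 2526, 2755, 2543, 2571 and 2361 in pair-fed mice. Every pair-fed mouse lay below every vehicle mouse. The fold change between them was −0.24 ± 0.05 (log2, SE; −15.3%; adjusted p = 0.0200), the smallest adjusted p among the members. The muscle forms of other subunits did not pass, with Cox6a2 at −0.01 ± 0.04 (95% interval −0.10 to 0.08) and Cox8b at −0.04 ± 0.05 (−0.15 to 0.07). Subunits with a single form here, Cox5a and Cox5b, which sit on the matrix side, gave −0.13 ± 0.05 and −0.12 ± 0.05 (adjusted p = 0.191 and 0.217). Cox4i1, the common form of subunit 4, gave −0.12 ± 0.07 (adjusted p = 0.395), Cox6b1 −0.11 ± 0.07 and Cox6a1 −0.14 ± 0.08. The small subunits Cox7b, Cox7c and Cox6c lay between −0.12 and −0.08, and Cox8a, the common form of subunit 8, gave −0.07 ± 0.10. Cox7a2l gave −0.04 ± 0.05. Cox4i2, the scarce form of subunit 4, gave −0.30 with an SE of 0.22, from 28.3 to 38.5 normalized counts in vehicle mice and 25.03 to 30.2 in pair-fed mice. Over the alternative settings the fold change of Cox4i2 ranged from −0.36 to −0.07.

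Complex V, the ATP synthase, held 4 of the 6 members that fell, and 17 of its 17 genes lay below 0 (median −0.13). The called genes were 1 membrane subunit and 3 of the 4 genes of the peripheral stalk, which holds the catalytic head still against the turning ring. Of the latter, Atp5h was past the threshold in only 11 of 32 alternative settings, with an adjusted p of up to 0.229. Atp5pb, stalk subunit b (ENSMUSG00000000563, chromosome 3, 105942698 to 105960099 on the minus strand), stood at 9047, 9047, 9468, 8756 and 9261 normalized counts in vehicle mice and at 7746, 8628, 8470, 8291 and 7137 in pair-fed mice. These ranges did not overlap, and the fold change was −0.18 ± 0.05 (log2, SE; −11.8%; adjusted p = 0.0558). GDF15 mice stood at 7951 to 9020, median 8402.

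Atp5j, coupling factor 6 of the same stalk (ENSMUSG00000022890, chromosome 16, 84827866 to 84835625 on the minus strand), stood at 4443, 4314, 4496, 4214 and 4413 normalized counts in vehicle mice and at 3698, 4080, 3912, 4092 and 3610 in pair-fed mice. No pair-fed mouse reached the lowest vehicle mouse, and the fold change was −0.18 ± 0.05 (−11.5%; adjusted p = 0.0597). Atp5h, stalk subunit d (ENSMUSG00000034566, chromosome 11, 115415689 to 115419962 on the minus strand), stood at 3984, 4037, 4208, 3903 and 3762 normalized counts in vehicle mice and at 3521, 3912, 3599, 3580 and 3147 in pair-fed mice. Here pair-fed mouse 3 lay above 2 of the vehicle mice, and the fold change was −0.17 ± 0.05 (−10.9%; adjusted p = 0.0992), just inside the threshold. The fourth stalk gene, Atp5o, which caps the head, differed from them with a fold change of −0.02 ± 0.04 and an interval of −0.11 to 0.07. This difference among the stalk genes was not tested. The symbol Atp5o has 2 annotated loci with overlapping exons on the same strand, and its value may hold reads of both.

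Atp5k, subunit e of the membrane part (ENSMUSG00000050856, chromosome 5, 108433244 to 108434448 on the minus strand), stood at 2492, 2388, 2457, 2212 and 2283 normalized counts in vehicle mice and at 2030, 2042, 2026, 2118 and 2042 in pair-fed mice. The pair-fed mice lay close together and below all vehicle mice, and the fold change was −0.20 ± 0.05 (−13.2%; adjusted p = 0.0452). GDF15 mice stood at 1967 to 2410, median 2095. The remaining membrane subunits Atp5mpl, Atp5md, Atp5j2 and Atp5l lay between −0.14 and −0.11, of which Atp5mpl was nearest to the threshold (adjusted p = 0.132). The catalytic subunits Atp5a1 (−0.06 ± 0.06) and Atp5b (−0.08 ± 0.06) and the central stalk genes Atp5c1 (−0.13 ± 0.05), Atp5d (−0.12 ± 0.05) and Atp5e (−0.06 ± 0.05) did not pass. Among the genes of the proton-carrying c ring, which encode the same mature protein, Atp5g1 and Atp5g3 gave −0.14 ± 0.07 each. Atp5g2 gave −0.34 ± 0.18, with pair-fed mice spread from 95.3 to 234 normalized counts and vehicle mice from 171 to 215. This value rested on single mice, at −0.17 without pair-fed mouse 6 (adjusted p = 0.619) and −0.49 without pair-fed mouse 3 (adjusted p = 0.0799).

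**Figure D3:**
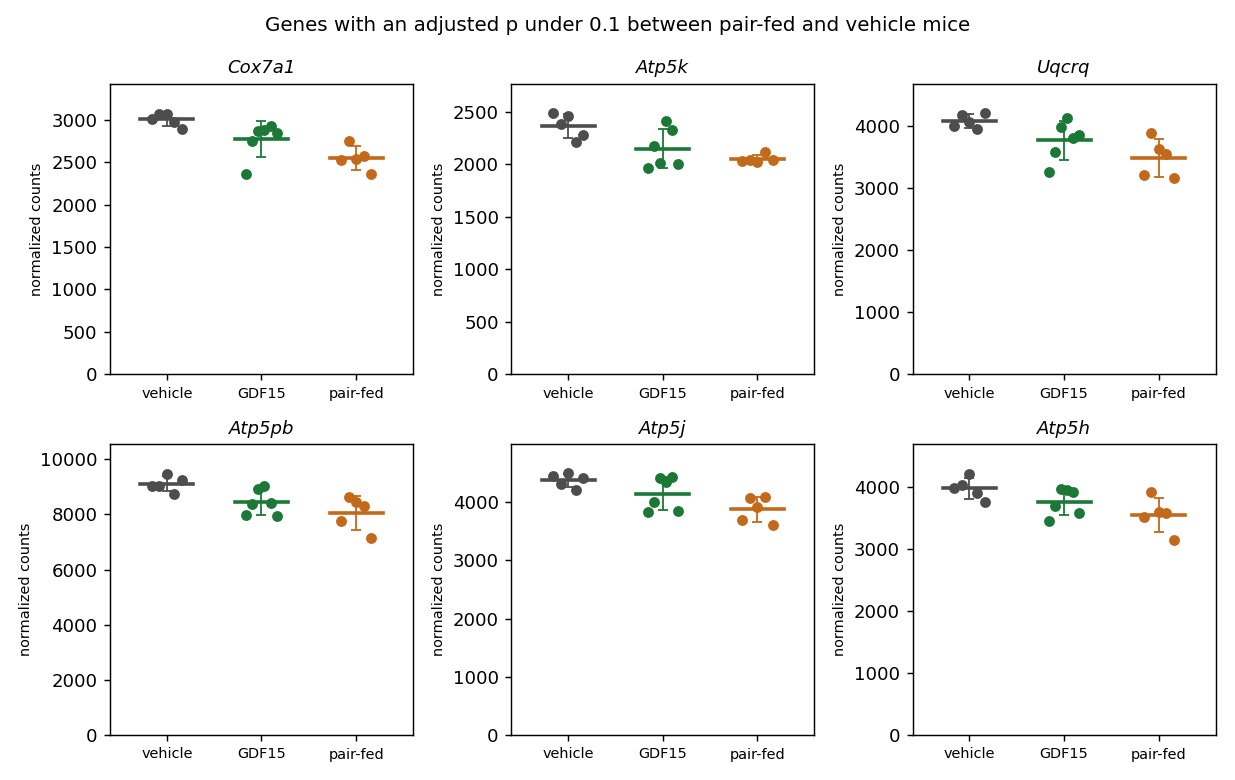
Normalized counts (y axis, from 0) of the 6 members with an adjusted p under 0.1 between pair-fed and vehicle mice; each point is a mouse, lines are group means and bars SD. Pair-fed mice lie below all vehicle mice for all but Atp5h, and GDF15 mice reach into the range of vehicle mice for each gene.

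In GDF15 mice compared with vehicle mice, 0 of 48 members passed the adjusted p of limma, against 0.769% of all genes. With the fold threshold added the count was also 0, against 0.304% of all genes. At an unadjusted p under 0.05 there were 5 members, all lower, against 5.41% of all genes lower. The groups overlapped for every tested member, and did not overlap for 1.65% of all genes. The fold change was below 0 for 40 members (49.6% of all genes), with a median of −0.06 against 0.00 over all genes. Without GDF15 mouse 1 that median was −0.02. Atp5k had the smallest p, with a fold change of −0.14 ± 0.05 (adjusted p = 0.310), and Cox7a1 gave −0.12 ± 0.05 (adjusted p = 0.394). Atp5pb gave −0.11 ± 0.05 (adjusted p = 0.403), Uqcrb −0.10 ± 0.05 and Cox4i2 −0.47 ± 0.22 (both adjusted p = 0.429). In complex II the value for Sdhb was −0.11 ± 0.07 and in complex III that for Cyc1 was −0.12 ± 0.08. Without GDF15 mouse 1 the values of Cox7a1, Sdhb and Cyc1 were each −0.07, and without GDF15 mouse 4 that of Cox4i2 was −0.30. Over all alternative settings Cox4i2 ranged from −0.61 to −0.09. The largest values above 0 in complexes III to V were 0.07 ± 0.07 for Uqcc3, 0.05 ± 0.05 for Cox7a2l and 0.07 ± 0.17 for Atp5g2, of which Uqcc3 was at 0.00 without vehicle mouse 1 and Atp5g2 at −0.01 without GDF15 mouse 4. The 95% interval lay within ±0.3 for 46 of 48 members, all but Cox4i2 and Atp5g2.

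In GDF15 mice compared with pair-fed mice, 0 members passed the adjusted p of limma, against 2.17% of all genes. With the fold threshold added the count was also 0, against 0.279% of all genes. Members with an unadjusted p under 0.05 numbered 3, all higher in GDF15 mice, against 6.29% of all genes higher. The groups overlapped for every tested member, and did not overlap for 1.77% of all genes. The fold change was above 0 for 46 of 48 members (50.8% of all genes), with a median of 0.06. Without pair-fed mouse 6 that median was 0.03. Those 3 members were Atp5l, subunit g of the membrane part (0.12 ± 0.04, adjusted p = 0.225), Atp5g2 (0.40 ± 0.17, adjusted p = 0.307) and Cox7a1 (0.12 ± 0.05, adjusted p = 0.310). The other largest values by complex were 0.11 ± 0.06 for Uqcrq in complex III and 0.08 ± 0.07 for Sdhb in complex II. Uqcrq ranged from 0.06 to 0.15 over the alternative settings and passed in 0 of 32. The values below 0 were −0.01 ± 0.04 for Atp5o and −0.17 ± 0.22 for Cox4i2. The 95% interval lay within ±0.3 for 45 members, all but Cox4i2, Atp5g2 and Cox8a. A call appeared when a mouse was left out: Cox7a1 without GDF15 mouse 1 (0.17, adjusted p = 0.0505) and Atp5g2 without pair-fed mouse 3 (0.56, adjusted p = 0.0736). Other omissions brought the values nearer to 0, at 0.24 for Atp5g2 (adjusted p = 0.537), 0.09 for Cox7a1 (adjusted p = 0.496) and 0.03 for Sdhb without pair-fed mouse 6, and −0.01 for Cox4i2 without GDF15 mouse 4. Each group enters 2 of the 3 comparisons, which are therefore not independent.

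The mean log2 level of the 48 tested members, relative to the mean of vehicle mice, described each mouse. Vehicle mice lay between −0.03 and 0.03. Pair-fed mice 2 to 6 lay at −0.18, −0.00, −0.09, −0.09 and −0.25, so that mouse 3 stood at the level of the vehicle mice and mice 2 and 6 stood lowest. GDF15 mice lay at −0.19, −0.09, −0.00, 0.01, 0.02 and −0.08 from mouse 1 to mouse 6, so that 3 of them were at the vehicle level and mouse 1 was as low as the lower pair-fed mice. The same mice were lowest in every complex: GDF15 mouse 1 was the lowest GDF15 mouse and pair-fed mouse 6 the lowest pair-fed mouse in complexes II, III, IV and V. The largest spread was in complex II, with an SD of 0.11 in GDF15 and 0.12 in pair-fed mice against 0.06 in vehicle mice. As a share of the normalized counts of a library, the 49 members made up 2.31% ± 0.07 in vehicle, 2.23% ± 0.16 in GDF15 and 2.09% ± 0.17 in pair-fed mice (SD). On the per-length scale complex V made up more than any other of the 4 complexes, at 2.06% ± 0.04, 1.97% ± 0.13 and 1.85% ± 0.14.

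**Figure D4:**
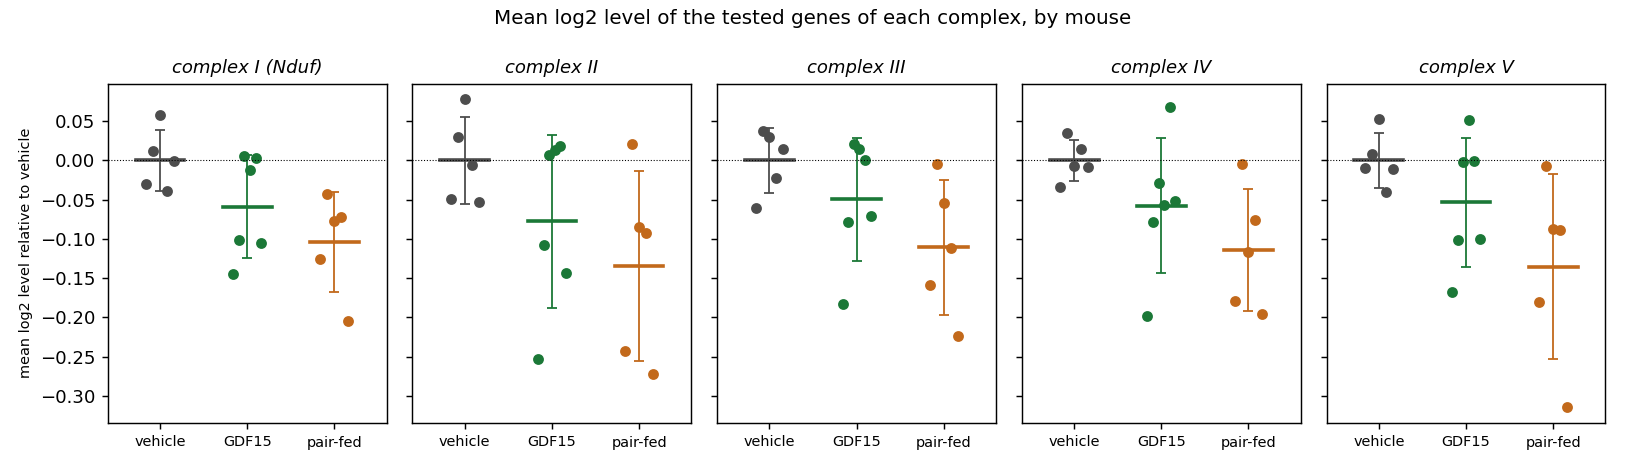
Mean log2 level of the tested genes of each complex, relative to the mean of vehicle mice; each point is a mouse, lines are group means and bars SD. In complex V the pair-fed means run from −0.31 to −0.01, and in each of complexes II to V 1 GDF15 mouse lies below the others. Complex I, taken as all symbols beginning Nduf and so with Ndufa4, is shown for comparison.

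Muscle forms of complex IV subunits made up most of the message of their pairs in each group, on the per-length scale. Cox6a2 was 97.6% ± 0.11 of Cox6a1 and Cox6a2 in vehicle, 97.7% ± 0.23 in GDF15 and 97.8% ± 0.08 in pair-fed mice. Cox8b was 95.5% ± 0.57, 95.5% ± 0.39 and 95.7% ± 0.27 of its pair with Cox8a. Cox7a1 was a smaller part of its pair with Cox7a2, at 71.9% ± 0.61 in vehicle, 70.7% ± 1.06 in GDF15 and 69.8% ± 0.57 in pair-fed mice. The vehicle mice ranged from 71.3% to 72.7% and the pair-fed mice from 69.2% to 70.6%, so these did not overlap. Cox7a2 itself gave −0.09 ± 0.05 between pair-fed and vehicle mice (adjusted p = 0.375). The scarce forms made up 0.39% ± 0.07, 0.30% ± 0.11 and 0.34% ± 0.02 for Cox4i2, and 0.12% ± 0.05, 0.14% ± 0.07 and 0.12% ± 0.08 for Cox6b2, which ranged from 2.14 to 9.14 normalized counts over all libraries.

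Other mitochondrial and ribosomal genes were set beside the members. Complex I, which takes electrons from NADH, was represented by all symbols beginning Nduf. This list includes Ndufa4, a complex IV subunit, and assembly factors were not set apart in it. Of 47 tested Nduf genes, 43 lay below 0 between pair-fed and vehicle mice, with a median of −0.12. Of these, 8 passed the adjusted p, all lower. Of 78 genes of the mitochondrial ribosome, 6 fell and the median was −0.08. Of all genes tested, 3.17% passed as lower and 3.2% as higher in this comparison. Of 84 genes of the cytosolic ribosome, 5 rose, 65 lay above 0 and the median was 0.05. Between GDF15 and vehicle mice the medians of these lists, in the same order, were −0.06, −0.04 and 0.07. There 74 of the 84 genes of the cytosolic ribosome lay above 0 and 1 passed as higher, against 0.769% of all genes in either direction. Between GDF15 and pair-fed mice the medians were 0.05, 0.04 and 0.02. There 1 Nduf gene and 2 genes of the mitochondrial ribosome passed as higher in GDF15 mice and 1 gene of the cytosolic ribosome as lower, against 0.929% of all genes higher and 1.24% lower, so that each count rests on 1 or 2 genes.

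Genes that build or feed the complexes were taken from lists of assembly factors and of cytochrome c and ubiquinone genes. Between pair-fed and vehicle mice, 2 of 26 complex IV assembly genes and 3 of 18 genes of cytochrome c, electron transfer flavoprotein and ubiquinone fell, against 3.17% of all genes, and none of these rose. Cycs, cytochrome c itself, which carries electrons from complex III to IV, stood at 2584, 2537, 2552, 2261 and 2593 normalized counts in vehicle mice and at 2140, 2231, 2153, 2162 and 1830 in pair-fed mice. These ranges did not overlap, and the fold change was −0.25 ± 0.05 (adjusted p = 0.0178). Hccs, which attaches haem to cytochrome c, fell with it (−0.26 ± 0.07, adjusted p = 0.0504). Pdss1, for the tail of ubiquinone, fell by 0.37 on the log2 scale (SE 0.11, adjusted p = 0.0705). Sco2, a copper chaperone of complex IV, gave −0.39 ± 0.12 (adjusted p = 0.0954), and Taco1, a translational activator of a mitochondrially encoded subunit, −0.19 ± 0.06 (adjusted p = 0.0737). None of 4 complex II, 3 complex III or 6 complex V assembly genes passed. Ndufa4, a complex IV subunit whose symbol lies outside the rule, gave −0.13 ± 0.04 (adjusted p = 0.1002). In the other comparisons 0 genes of these lists passed.

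Some markers of muscle fibres also passed in this contrast, in either direction. Between pair-fed and vehicle mice Myh1, the myosin of fast IIx fibres, fell (−0.68 ± 0.14, adjusted p = 0.0123), as did Mb, the oxygen store myoglobin (−0.50 ± 0.14, adjusted p = 0.0515), and the calcium store protein Casq2 (−0.82 ± 0.24, adjusted p = 0.0643). Casq2 was the only slow marker to pass, and 6 of the 9 slow markers lay above 0, with a median of 0.29 over the list. The fast-fibre genes Actn3 (0.33 ± 0.07, adjusted p = 0.0167) and Pvalb (0.27 ± 0.07, adjusted p = 0.0538) and the creatine kinase Ckm (0.15 ± 0.05, adjusted p = 0.0997) rose. Of these, Actn3 also passed between GDF15 and pair-fed mice (−0.27 ± 0.07, adjusted p = 0.0678). Mb stood at 24350, 42290, 37330, 32020 and 26840 normalized counts in pair-fed mice 2 to 6 and at 27400 in GDF15 mouse 1, against 42540 to 49290 in vehicle mice. The mice with the lowest members, pair-fed mice 2 and 6 and GDF15 mouse 1, were thus also lowest in Mb. Mb came from the list of 5 skeletal muscle markers, of which 4 lay above 0 between pair-fed and vehicle mice (median 0.10). In Myh2, the IIa myosin, GDF15 mouse 1 stood at 24180, within the vehicle range of 22460 to 36580. Pair-fed mice 2 and 6 stood at 9789 and 19240 there, pair-fed mouse 5 at 14470 and GDF15 mouse 6 at 13480.

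By list, 2 of 7 fast glycolytic markers rose and 1 fell, 1 of 9 slow markers fell, and the single fast oxidative marker, the IIa myosin Myh2, gave −0.61 ± 0.26 (adjusted p = 0.216). The summed level of the fast glycolytic list ranged from 1488000 to 1756000 normalized counts in vehicle, 1505000 to 1729000 in GDF15 and 1612000 to 1905000 in pair-fed mice. That of the slow list ranged from 2090 to 2931, 1901 to 3755 and 1437 to 4511. Myh2 ranged from 22460 to 36580, 13480 to 33800 and 9789 to 29000. Of markers of cells other than muscle fibres, 1 of 5 endothelial genes (Kdr, −0.50 ± 0.09, adjusted p = 0.00473) and 1 of 4 smooth muscle genes (Cnn1, −1.47 ± 0.40, adjusted p = 0.0523) fell. Kdr also fell between GDF15 and vehicle mice (−0.66 ± 0.08, adjusted p = 0.00116). Between pair-fed and vehicle mice all 5 endothelial (median −0.17), all 4 smooth muscle (−0.10) and all 5 tested nerve sheath genes (−0.27) lay below 0. So did 4 of 5 fibroblast and 3 of 5 macrophage genes, while 5 of 6 adipocyte genes lay above 0. All 5 endothelial genes also lay below 0 between GDF15 and vehicle mice (median −0.12). The summed endothelial list ranged from 4760 to 5626 in vehicle, 3982 to 4978 in GDF15 and 4136 to 4966 in pair-fed mice, and the summed smooth muscle list from 1589 to 2157, 1301 to 2151 and 1639 to 2111. Of the markers listed, 3 of 5 for red blood cells and 1 of 2 for brown adipocytes were in the table and the others of those 2 lists were not analysed here. No marker in the table was at 0 in all libraries. None of the adipocyte, nerve sheath, fibroblast, macrophage or red blood cell markers passed in this contrast. The part of fibre type or of other cells in the difference of the members was not tested.

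**Figure D5:**
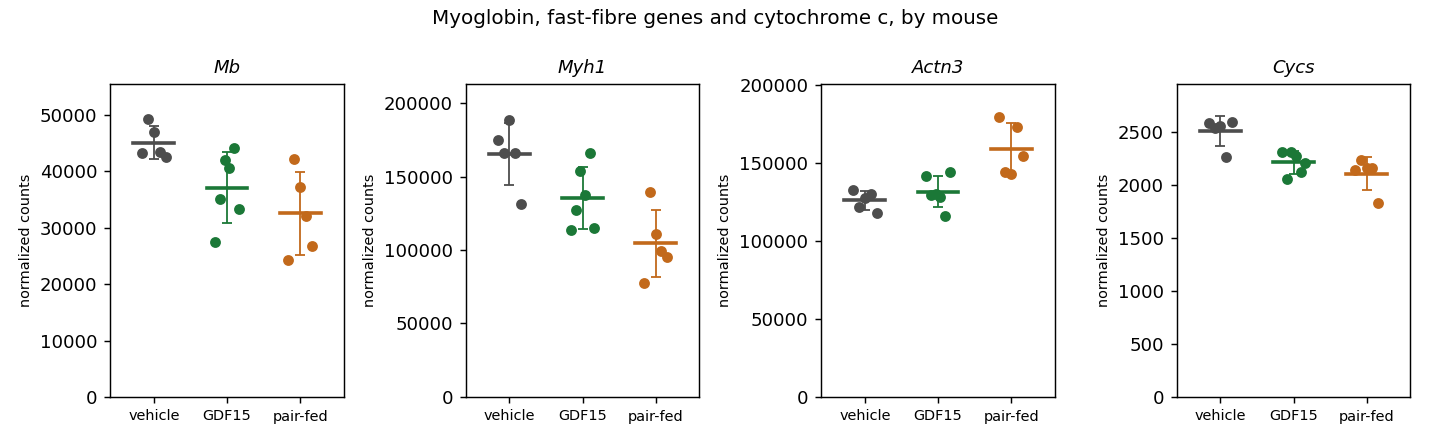
Normalized counts (y axis, from 0) of Mb, Myh1, Actn3 and Cycs by group; each point is a mouse, lines are group means and bars SD. Pair-fed mice lie below all vehicle mice in Mb (24350 to 42290) and Cycs (1830 to 2231) and above them in Actn3.

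Exons of 10 members overlap those of another gene in the table on the opposite strand. For the called members these were Gabpa at Atp5j, which gave −0.14 ± 0.07 between pair-fed and vehicle mice (adjusted p = 0.281), and Wdr77 at Atp5pb, which gave 0.09 ± 0.08 (adjusted p = 0.560). The library kit kept the strand, but the strand setting of the quantification is not given in the sources used here.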

How the data were processed

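Reads had been trimmed (Trim Galore), assigned to transcripts (Salmon) and normalized between libraries (DESeq2) by the authors. Per the labels the build was mm10, and tool versions are not given in the sources used here. The deposited values are on a log2 scale in the variance-stabilized form, from 7.32 to 19.96, with 8459 at the lowest, and were turned back into normalized counts. Where a gene had 1 annotated transcript, 88.2% to 96.2% of low values per library lay within 0.1 reads of a whole number, and this step gave the approximate depth. Counting error at low counts is part of the spread between mice.

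For the 11841 genes whose mean over all libraries reached 10 normalized counts, log2(normalized count + 1) was fitted in limma 3.58.1 (R 4.3.3) as a function of group alone, using every library and a variance trend. P values were two-sided and adjusted by Benjamini-Hochberg over all of these genes. Calls were made at an adjusted p under 0.1, alone or with a log2 fold change over 0.6 in size, the thresholds of the study's methods. Fold changes are on the log2(count + 1) scale. Transcript lengths and coordinates came from GENCODE (GRCm38, the assembly of mm10), and 189 genes were matched through older symbols. Scripts were tested on simulated data, and tables were handled with Python 3.11.15.

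The members, gene lists and tests were chosen with earlier results of these data known. Members were named if they passed the adjusted p, had the highest or lowest fold change of their complex in a comparison, belonged to complex II or to an isoform family, or fell below the minimum; Uqcrb, Atp5mpl, Atp5l and other members given briefly were added after their values were seen. Alternatives covered scaling, pseudocount, filter, depth, length and GC content, weights, thresholds, the replicate block and leaving out each mouse.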

Additional observations from a re-analysis of the deposited data

Results flagged for a closer look

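In 4 of the 144 groups of mice examined (2.78%, where chance gives about 1 in 20), a mouse stood far from the rest of its group by Dixon's criterion. Cox7a1 in GDF15 mouse 1 was lowest at 2369 normalized counts, with the other GDF15 mice at 2750 to 2936. Atp5k in pair-fed mouse 5 was highest at 2118, with the others at 2026 to 2042, and still lay below all vehicle mice. In vehicle mouse 4, Atp5md was lowest at 2179 (others 2352 to 2382) and Cox7c was lowest at 3707 (others 3827 to 3869).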

How the results depend on the processing

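Between pair-fed and vehicle mice the median log2 fold change of members kept its sign throughout, from −0.17 to −0.11 over the settings and from −0.15 to −0.08 when a mouse was left out. The number of members past the adjusted p moved from 6 to 2 with no variance trend, 10 with quantile normalization, 3 at a threshold of 0.05 and 20 with libraries scaled to equal totals (chosen after seeing the data), and ranged from 2 to 14 when 1 mouse was left out. The share of all genes called was not taken under the alternatives, so these counts cannot be set beside it. Of 32 alternatives, Cox7a1 kept its call in 32, Atp5k in 29, Uqcrq in 27, Atp5pb and Atp5j in 25 each and Atp5h in 11. Between GDF15 and pair-fed mice the count of 0 became 1 with equal totals and ranged from 0 to 1 when 1 mouse was left out. Between GDF15 and vehicle mice it was 0 under all alternatives. The median of members against vehicle ranged from −0.08 to −0.04 over the settings and from −0.07 to −0.02 without 1 mouse, and that against pair-fed mice from 0.04 (depth as a covariate) to 0.11 (equal totals) and from 0.03 to 0.09 without 1 mouse. The causes were not tested. The median of all genes moved by at most 0.05.

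Same-numbered mice of different groups had correlations of −0.10 to 0.07 in their deviations from the group means. In 4 of 28 comparisons a mouse was nearest to its own number. Such correlations cannot show whether the ration of a pair-fed mouse was matched to a single GDF15 mouse. With the replicate block, 7 members passed between pair-fed and vehicle mice (median −0.12) and 0 in the other comparisons (medians −0.04 against vehicle and 0.08 against pair-fed mice). The share of all genes called with the block was not taken.

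Cox6b2, at a mean of 5.01 normalized counts, was too scarce to test, and the part of depth in this was not tested. Among those tested, the scarce members Cox4i2 and Atp5g2 had the widest intervals; the part of depth in them was not tested.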
